A study of Mus musculus with 3 samples.

Results

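The cytosolic ribosomal protein genes were taken as every non-control probe whose gene name in the array files is an Rpl or Rps symbol of the 80S ribosome, the stalk genes Rplp0 to Rplp2 or Rpsa. The pattern used fits 76 genes of 30199 gene names on the array, 45 of the large and 31 of the small subunit, chosen by name alone. They are read by 181 probes of 60 bases, of which 180 passed the filter on dim probes. The series compared 2 lines made from RM1, mouse cells of a prostate cancer: RM1-MXRA7, transfected to overexpress MXRA7, and RM1-VE, which carries the vehicle vector. Both lines were grown with G418 and fetal calf serum, and their RNA was taken on day 2, in exponential growth. On each of 3 Agilent arrays of 2 colours, Cy3 labelled the RNA of RM1-MXRA7 and Cy5 that of RM1-VE, and every value is a log2 ratio of RM1-MXRA7 over RM1-VE within an array. Without a dye swap, what a dye does to a probe cannot be told apart from what differs between the lines. The sources used here do not give the promoter of the vector, whether a line is a clone or a pool, or whether the 3 replicates were separate cultures, and the p-values then measure only the spread between these arrays.

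Ribosomal proteins surround the ribosomal RNAs: the large subunit makes the peptide bond and the small subunit reads the mRNA. Growing cells make the proteins in about equal number, and their mRNAs are among the most abundant of the cell. These mRNAs begin with a run of pyrimidines (the TOP motif), through which mTOR and LARP1 set their translation together, and Myc raises transcription of the genes and of the factors that build ribosomes. In such a family a small shift shared by all members would be visible as many probes moving the same way, and a shift of single members as probes that leave the rest.

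For the transfected gene, 1 of its 2 Mxra7 probes stood at 0.31 ± 0.14 by loess (log2, SD over n = 3 arrays), with 0.00446 as its adjusted p in limma, and at -0.014 once a smooth surface over the array was subtracted; the other had 0.10 ± 0.04 and an adjusted p of 0.279. The transfected sequence need not contain either probe. Of the prostate epithelial markers, 4 of 11 were well above background in both lines (Krt8, Krt14, Krt18 and Foxa1), and Krt5, Epcam, Cdh1, Pbsn and Hoxb13 were among those that were not. All 5 mesenchymal markers, 3 of 6 leukocyte markers (Ptprc and Lyz2 among those that were not) and 3 of 4 endothelial markers (not Tek) were well above background in both, and the part of other cell types in the ratios was not tested. Between 21767 and 24172 probes per array and channel were well above background, no spot was saturated, and a smooth surface over rows and columns took 25.5% to 34.3% of the variance of the ratios.

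Several genes are read by pairs of probes that overlap in sequence, and these pairs carry much of what follows, since 2 probes with nearly the same bases should report the same ratio. For Rpl38, Rpl37a, Rps27 and Rps24 the first 30 of the 60 bases of both probes of a pair are shown, 5′ to 3′, with capitals where the base belongs to the stretch of 52 or 53 bases that the pair shares.
Rpl38 A_55_P1955059: GGATCTGAAATGAACCAGCCCTCTGCGTGT
Rpl38 A_55_P2091308: agtgaaGGATCTGAAATGAACCAGCCCTCT
Rpl37a A_55_P1957204: agaAGCCCTGCTGTCTGAGACTTGCCTAGC
Rpl37a A_55_P2075479: AGCCCTGCTGTCTGAGACTTGCCTAGCCTG
Rps27 A_55_P2155438: cactgaaaGCCCCTGATTGAAGATGAGTGG
Rps27 A_55_P2158112: GCCCCTGATTGAAGATGAGTGGGAACCTTC
Rps24 A_55_P2032600: ttgatGTTTTGCTGTGATGTGCAGATTTCT
Rps24 A_55_P2137773: GTTTTGCTGTGATGTGCAGATTTCTGAGAG
For Rpl6 both probes are shown whole, with their 28 shared bases in capitals, together with another probe of Rps24.
Rpl6 A_55_P1990859: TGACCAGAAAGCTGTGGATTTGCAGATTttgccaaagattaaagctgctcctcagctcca
Rpl6 A_55_P2052634: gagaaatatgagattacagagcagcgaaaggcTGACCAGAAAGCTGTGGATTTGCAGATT
Rps24 A_55_P1993880: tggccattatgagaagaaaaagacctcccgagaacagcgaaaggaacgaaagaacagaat
The array files place them on mouse build mm9. The Rpl38 probes lie at chr6:52296677-52296736 on the minus strand and chr11:114533586-114533645 on the plus strand, so that 1 of them is placed outside the chromosome of the gene. Those of Rpl37a lie at chr7:26613560-26613619 (minus) and chr1:72760141-72760200 (plus), and those of Rps27 at chr9:114891517-114891576 and chr9:114891509-114891568 (both minus). The Rps24 pair lies at chr14:25315021-25315080 and chr14:25315026-25315075 and the third probe at chr14:25311190-25312666, the Rpl6 probes at chr5:121658820-121658879 and chr5:121658582-121658847, all on the plus strand. Of these, 2 are placed over an interval longer than the probe.

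By the ratio alone, more ribosomal protein probes were lower in RM1-MXRA7 than higher. After loess normalization 82 of the 180 were called lower (45.6%, in 53 genes) and 29 higher (16.1%, in 21 genes) at an adjusted p of 0.05 in limma, where all 21791 kept probes gave 23.1% lower and 24.2% higher. A lower ratio is a smaller share of the labelled RNA and cannot tell less RNA per cell from fewer cells that contain it. Over the members, the median log2 ratio was -0.156, -0.142 and -0.143 on arrays 1, 2 and 3, and 122 of 180 lay below 0. The median over all kept probes was -0.011. Requiring the same call after the surface was removed left 44 probes lower (24.4%, in 36 genes) and 4 higher (2.22%), against 10.1% and 9.87% of all kept probes. Without replicate 2 these counts were 26 and 0.

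These probes are also the brightest on the array. Their median intensity, the mean of the log2 signals of both channels, was 16.67 against 9.90 over all kept probes, and 51 of the 200 brightest kept probes read a ribosomal protein. Intensity is a property of the probe as well as of the mRNA, so it says nothing on which gene is expressed more. Across the 180 members the loess ratio had a Spearman correlation of -0.60 with intensity, a description over probes that share 3 arrays and, in part, genes. Of the 43 members with an intensity under 16, 6 were called lower by loess. Among the other probes these calls made up 22.96% under 14, 15.99% between 14 and 15 and 16.37% between 15 and 16. At 17 or more, loess called 44 of 55 members lower (80%), against 71.25% of the 160 other probes. Of the 44 members called lower in both fits, 36 had an intensity of 17 or more. They were 65.5% of the members there, against 48.75% of the other probes.

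**Figure D1:**
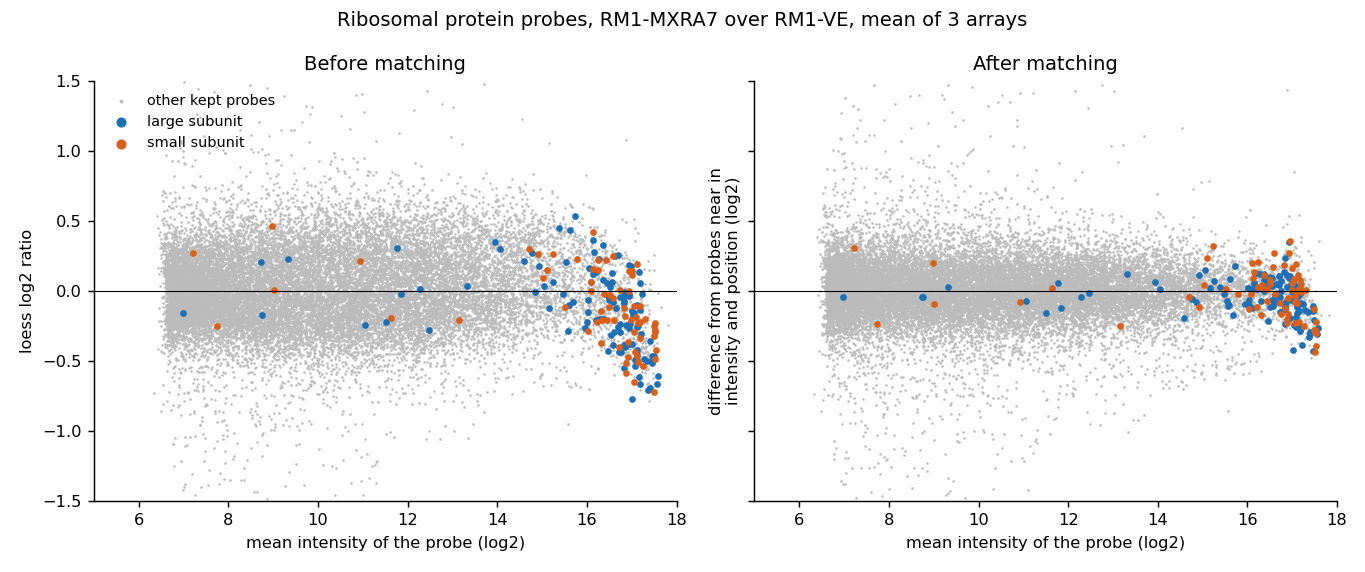
Loess log2 ratio (left) and the difference from probes near in intensity and position (right), in log2, against the mean log2 intensity of each kept probe, as means of 3 arrays; blue and orange points are probes of the large and small subunit, grey points the other kept probes, of which 85 (left) and 71 (right) lie beyond 1.5 and are not drawn. The members sit at the bright end, where on the left grey and coloured points bend down together.

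Set against equally bright probes of other genes, most of the fall was common to both. At an intensity of 17 or more, the 55 ribosomal protein probes had a median loess log2 ratio of -0.379 and the 160 other probes -0.340. Between 16.5 and 17 the medians were -0.121 and -0.127, and between 16 and 16.5 they were -0.010 and -0.049. Members of 15 to 16 lay above 0, at 0.062, as did the other probes, at 0.038. Actb, which encodes the cytoskeletal protein beta-actin, had -0.51, -0.61 and -0.64 on the 3 arrays, and a probe of Tuba1c, an alpha-tubulin, -0.55, -0.60 and -0.85, both lower than the median of the members in this range. Before normalization the medians were also close: -1.49 for members and -1.46 for the others at 17 or more.

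**Figure D2:**
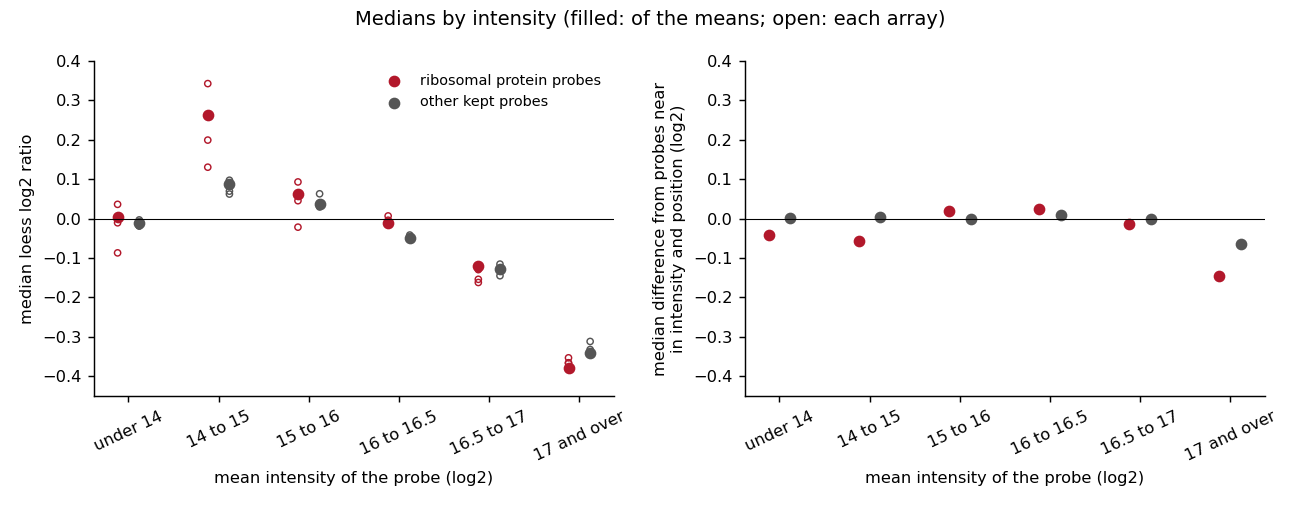
Median loess log2 ratio (left) and median difference from probes near in intensity and position (right), in log2, of ribosomal protein probes (red) and other kept probes (grey) in 6 ranges of mean log2 intensity; filled points are medians of the means of 3 arrays and open points are single arrays. The pairs of points descend together on the left, and on the right the members are lowest at 17 and over.

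The ratio was therefore taken as a difference from other probes of the same intensity: on each array, the median ratio of the 100 kept probes nearest in intensity that read no ribosomal protein was subtracted, for members and all other probes alike. The medians of the members were then -0.0066, -0.0058 and 0.0005 on arrays 1, 2 and 3, and the median of the means was 0.016. The sign of the latter turned under several alternatives and held under others. Of the 180 members, 86 lay below 0. Of the members, 36 were called lower and 35 higher (19.4%), against 20.3% and 24.0% of all kept probes. The share of lower calls was thus near the background and that of higher calls below it.

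The values also moved with the place of the probe on the array. The difference from equally bright probes had a Spearman correlation of -0.77 with the array row across the members, and of -0.71 across the 623 other probes of intensity 16 or more. With the surface removed first the correlation was 0.51 and 0.54, so that the sign of the relation turned among bright probes of both kinds. A second comparison therefore used, of the 300 probes nearest in intensity, the 30 nearest in position, a choice made after the data were seen. It had a correlation of -0.04 with the row across the members.

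The overlapping probes show what this did to single genes. Rpl38, at rows 477 and 80, had loess log2 ratios of -0.78 and -0.31 on its 2 probes and position-matched differences of -0.42 and -0.38. Rps27, at rows 357 and 36, had -0.34 and 0.11 by loess and -0.010 and 0.009 when matched. The Rpl6 probes lay on opposite sides of 0 by loess, at -0.25 and 0.26, and at 0.11 on both when matched. Over the 23 pairs of probes of 1 gene that share 20 or more bases, in 19 genes, the median gap went from 0.282 by loess to 0.107 with the surface removed and matched in intensity, and to 0.035 when matched in intensity and position. Over all probes of the 61 genes with more than 1 kept probe, the pooled SD within a gene was 0.242 by loess and 0.111 when matched in position. Agreement between overlapping probes is a check of the values within an array and not of the difference between the lines.

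**Figure D3:**
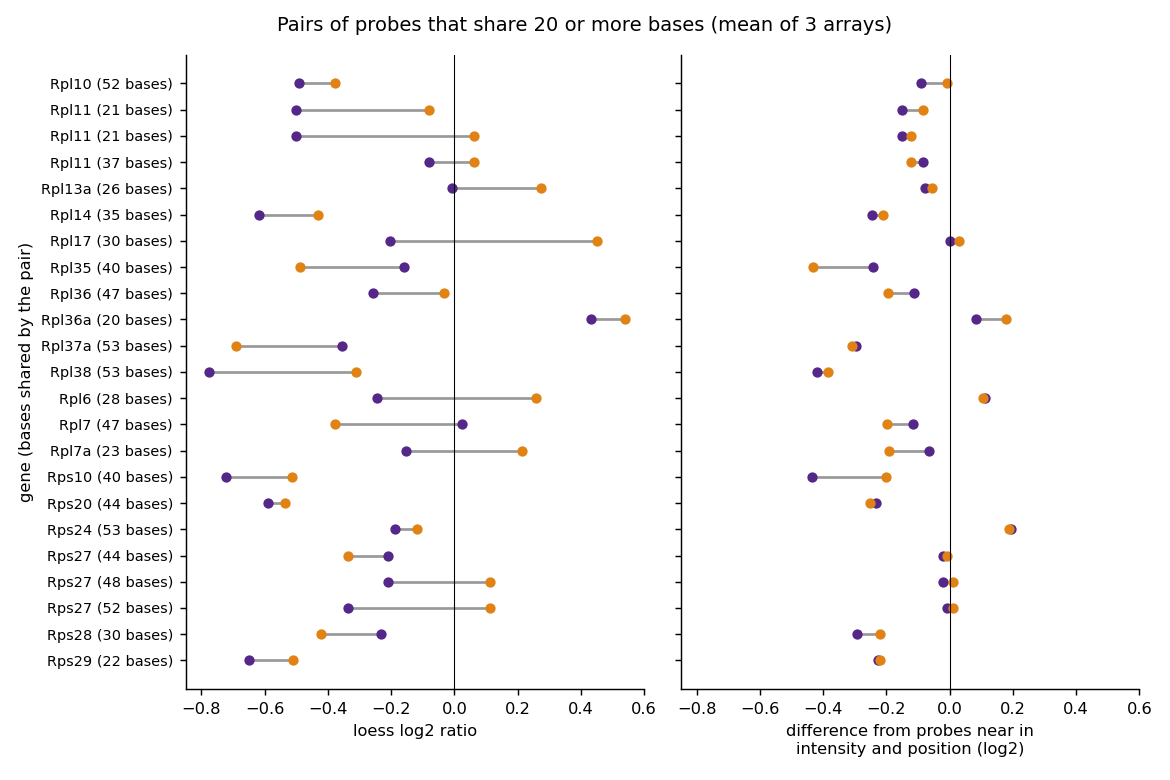
Loess log2 ratio (left) and difference from probes near in intensity and position (right, log2) of the 23 pairs of probes that share 20 or more bases, as means of 3 arrays; each line joins the 2 probes of a pair. The lines on the left are long and cross 0 in several genes, and on the right they are short, with the Rps10 pair the widest at 0.234.

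After matching, single members were still called. Calls made in both matched comparisons were no more frequent than among kept probes in general, most of which are dimmer. A probe is described as lower or higher below where limma called it in the same direction in both comparisons, with the surface removed and matched in intensity, and matched in intensity and position. This held for 19 members lower (10.6%, in 15 genes) and 11 higher (6.11%, in 8 genes), against 11.4% and 10.9% of all kept probes. The position match alone called 29 lower (16.1%) and 12 higher (6.67%), against 12.8% and 12.5%. The share called lower in both was near the background, and the share called higher in both was below it. By the position match alone the share called lower was above the background. The values were small: from -0.43 to -0.20 for the lower and from 0.19 to 0.35 for the higher probes. All 30 had the same sign on all 3 arrays. Without replicate 2, 3 of the 19 and 3 of the 11 were still called, among 3.96% and 3.42% of all kept probes, and 3 (Rps10, Rpl35 and Rpl38, 1 probe each) and 2 (Rpl13 and Rps24, 1 probe each) were called whichever array was left out. The 1 called probe of Rpl24, Rpl36 and Rps4x, 1 each of Rpl35, Rps20 and Rps24, lost the call in every fit that left out an array. With Agilent's processed signals in place of the background-corrected ones, 7 of the 19 and 6 of the 11 were called, although the processed ratio had the same sign in all 30.

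The lower probes lay mostly at the top of the intensity range. Of the 55 members at 17 or more, 15 were lower (27.3%), against 19 of 160 other probes (11.9%), and 1 was higher against 10. In the range of 16.5 to 17, 2 of 48 members were lower (4.17%), against 7% of the other probes. None of 34 members between 16 and 16.5 was lower, nor of 24 between 14 and 16, against 5.70% and 10.23% of the others. Under 14, 2 of 19 members were lower, against 11.68% of the others. The median position-matched difference at 17 or more was -0.145 for members and -0.064 for the others. For 16 members the median of the 100 probes nearest in intensity was dimmer by more than 0.1, and 9 of these were among the 19. That count was not made for the 300 probes from which the position match draws. Only 160 other probes lay at 17 or more, so for members there these 300 reached below 17. A regression of the ratio on intensity and position, fitted on the other probes of 16 or more and added after the data were seen, left the 55 members at -0.070, -0.086 and -0.082 on the 3 arrays and the 160 others at 0.005, -0.022 and -0.042. For the 17 lower probes bright enough to have a value in this regression it ran from -0.42 to -0.046, and for Rps14, Rps28 and Rps16 it was smaller in size than the position-matched difference. The parts of intensity and position in the remaining differences were not tested.

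**Figure D4:**
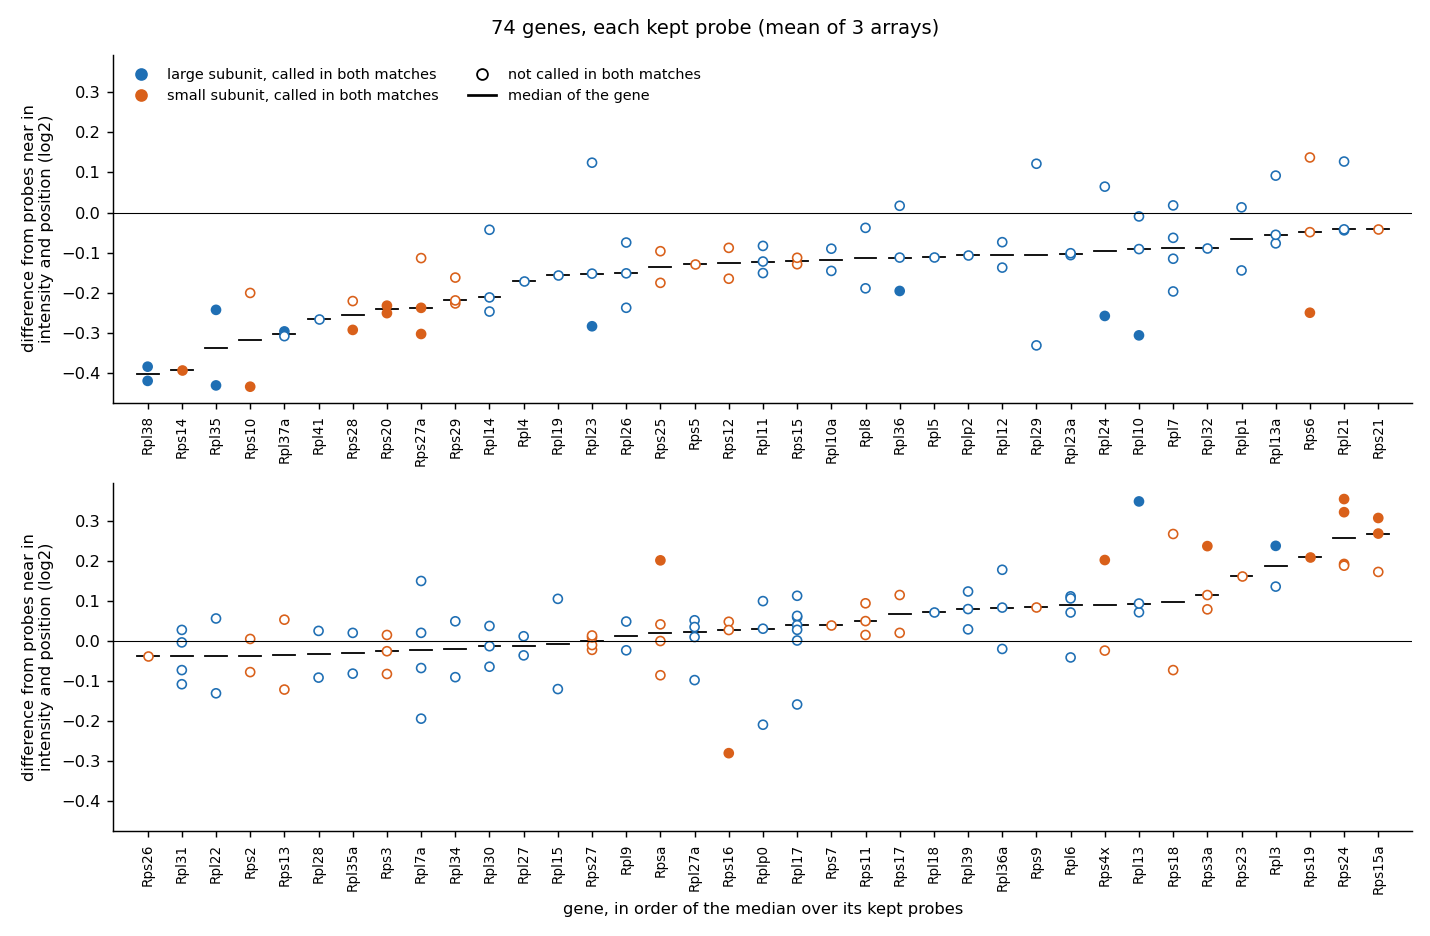
Difference from probes near in intensity and position (log2, mean of 3 arrays) of every kept probe of 74 genes, in order of the median of each gene (black bar); blue is the large and orange the small subunit, and filled points were called in both comparisons. The medians run from -0.40 for Rpl38 to 0.27 for Rps15a, and most of them lie within 0.1 of 0 (42 of all 76 genes).

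Among proteins of the large subunit, Rpl38 had the lowest gene median in the position match, at -0.40, and Rpl35 with the surface removed, at -0.38 against -0.35 for Rpl38. Rpl38 lies at the surface of the subunit and is known for its part in the translation of Hox mRNAs during development. Its first probe had position-matched differences of -0.42, -0.42 and -0.41 on arrays 1, 2 and 3, a mean of -0.42 ± 0.0048 (SD, n = 3) or 1.34-fold lower, with an adjusted p of 0.00108 in limma. The second had -0.42, -0.34 and -0.39, a mean of -0.38 ± 0.04 and an adjusted p of 0.00197. Against equally bright probes without regard to position, the first probe had -0.53. The second had 0.079, 0.12 and -0.10, a mean of 0.033 that was not called (limma adjusted p 0.765). With the background-corrected signals, its difference from equally bright probes was thus called lower only once position was corrected for. With Agilent's processed signals the ratios of these probes were -0.33 and -0.38. Their differences from equally bright probes, without regard to position, were then -0.24 and -0.31 (limma adjusted p 0.0397 and 0.0209). Rpl35, which sits at the exit of the peptide tunnel, had -0.47, -0.40 and -0.43 on 1 probe (adjusted p 0.0010 in limma) and -0.30, -0.14 and -0.29 on the other (adjusted p 0.0219). The latter probe had a loess ratio of -0.16, which was not called (adjusted p 0.123), and is placed by the files on another chromosome than the gene. Against equally bright probes alone it had 0.11 and the other probe -0.14, neither of them called (limma adjusted p 0.329 and 0.169).

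Rpl37a, a small zinc-binding protein, had -0.29, -0.31 and -0.29 on 1 probe and -0.32, -0.30 and -0.31 on the overlapping one. The position match called both (limma adjusted p 0.00646 and 0.00544), whereas the surface-removed match called only the first (0.00933 and 0.531). Of Rpl36, whose 3 probes the files all place on other chromosomes than the gene, 1 was lower, at -0.20 ± 0.04 (limma adjusted p 0.0383); against equally bright probes alone it had 0.18, which was not called (0.0781). Rpl24 was lower on 1 probe, at -0.40, -0.20 and -0.17, with array 1 apart from the others.

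Rpl10, Rpl23, Rpl14 and Rpl8 each had probes that differed from one another after matching. Rpl10, which joins the large subunit last and lies beside the peptidyl transferase centre, had 3 probes at -0.66, -0.49 and -0.38 by loess, and -0.31, -0.09 and -0.01 after position matching, of which the first was lower (limma adjusted p 0.00577). Rpl23 had -0.28 (adjusted p 0.00799 in limma), -0.15 and 0.12 on its 3 probes after matching. Rpl14 had -0.25, -0.21 and -0.04, called on the first 2 in position (limma adjusted p 0.0165 and 0.0409) and on neither with the surface removed (0.143 and 0.543). Rpl8 had -0.19 and -0.04 and was not called (limma adjusted p 0.0564 and 0.668).

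Only 2 probes of the large subunit were higher in both comparisons, of Rpl3 and Rpl13. Rpl3, one of the proteins nearest the peptidyl transferase centre, had 0.23, 0.25 and 0.23 on 1 probe (limma adjusted p 0.0169; by loess -0.07) and 0.02, 0.22 and 0.17 on the other, which was not called (0.147). A probe named Rpl13, placed by the files on chromosome 4 and not on chromosome 8 with the gene, had 0.41, 0.32 and 0.31, a mean 1.27-fold higher (limma adjusted p 0.00344; by loess -0.04). Of the 11 higher probes, 4 had a loess ratio of the other sign. The 2 probes placed at Rpl13 itself had 0.07 ± 0.11 and 0.09 ± 0.04 and were not called. The probe may read a processed copy as well as the gene, which the files do not separate. A probe of Rpl6 among the 10 highest with the surface removed had 0.11 ± 0.10 in the position match and was not called (limma adjusted p 0.227).

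Among proteins of the small subunit, Rps10 and Rps14 were the lowest. Rps10, a protein of the head of the subunit, had -0.49, -0.39 and -0.43 on its brighter probe, a mean of -0.43 ± 0.05 and 1.35-fold lower, at an adjusted p of 0.00105 in limma. The overlapping probe had -0.32, -0.09 and -0.19 (adjusted p 0.0504). Rps14, at the platform of the subunit, has 1 kept probe, with -0.54, -0.39 and -0.25, spread widely over the arrays but all below 0 (limma adjusted p 0.0042), and -0.19 in the regression on intensity and position. Rps27a, which is made as a fusion with ubiquitin, was lower on 2 of 3 probes that differ much in intensity, at 17.5 and 7.7. These had -0.43, -0.31 and -0.16, and -0.26, -0.23 and -0.23, with limma adjusted p of 0.0123 and 0.017; the third had -0.11 (0.223). Against equally bright probes alone the brighter of them had 0.064, which was not called (limma adjusted p 0.539).

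Rps20, in the head, was lower on both of its overlapping probes, at -0.23 ± 0.10 and -0.25 ± 0.08 (limma adjusted p 0.0275 and 0.0172). Rps28 was lower on 1 of 2 probes, at -0.29 ± 0.05, where the regression gave -0.055 ± 0.019. Rps16 was lower on 1 probe, at -0.28 ± 0.04, where the regression gave 0.082, -0.098 and -0.12 on the 3 arrays, while its other probes had means of 0.03 and 0.05. Rps6, the phosphorylation target of the S6 kinases, had a probe of intensity 13.1 at -0.03, -0.42 and -0.30, far apart on the arrays (limma adjusted p 0.0461), and 2 others at -0.05 and 0.14 that were not called. A probe of Rps12 among the 10 lowest with the surface removed had -0.17 ± 0.10 in the position match (limma adjusted p 0.0846).

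Rps24 and Rps15a were the highest genes. Rps24, needed for processing of the small ribosomal RNA, had all 4 probes above 0 on every array. A probe not shown above had 0.44, 0.24 and 0.38, a mean of 0.35 ± 0.10 (limma adjusted p 0.00443), and the probe shown whole above had 0.39, 0.31 and 0.26, 0.32 ± 0.06 (0.00536). The overlapping pair had 0.193 and 0.188, and only the first of these was called (limma adjusted p 0.0391 and 0.0535). By loess the same 4 probes had -0.003, 0.264, -0.187 and -0.120, so the direction turned for 3 of them with the matching. With Agilent's processed signals the 4 ratios were 0.42, 0.34, 0.23 and 0.28. Rps15a, of the body of the small subunit, had 0.31 ± 0.13, 0.27 ± 0.05 and 0.17 ± 0.08 on its 3 probes; the first 2 were higher (limma adjusted p 0.0115 in both) and the third was not called (0.0671).

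Rps19, of the head of the small subunit, had 0.12, 0.22 and 0.29 on its 1 probe (limma adjusted p 0.036). For 3 further genes 1 probe was higher. Those of Rps3a, Rps4x and Rpsa had 0.24 ± 0.02, 0.20 ± 0.02 and 0.20 ± 0.06, where their other probes lay from -0.09 to 0.12 and were not called. The probe of Rpsa, a protein of the small subunit also known as a laminin receptor, had an intensity of 9.0.

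**Figure D5:**
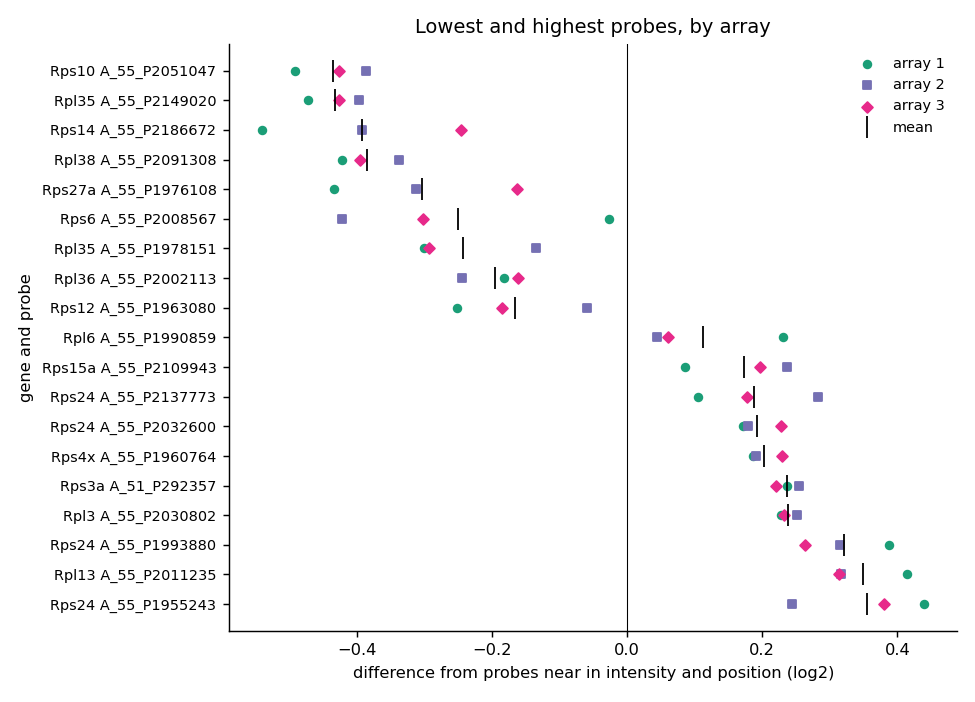
Difference from probes near in intensity and position (log2) on arrays 1 to 3 (symbols) and their mean (bar), for 19 of the 20 ribosomal protein probes that were lowest or highest with the surface removed and matched in intensity. All 3 symbols lie on 1 side of 0 for every probe; Rps6 and Rps14 have the widest spread.

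The probes of a gene did not always move together. Of the 61 genes with more than 1 kept probe, 20 had all probes below 0 in the position match, 8 all above, and 33 had probes on both sides. In 3 of them every probe was lower (Rpl38, Rpl35 and Rps20), in none was every probe higher, and no gene had probes called in both directions. The widest ranges with the surface removed were those of Rpl36 (-0.38 to 0.17), Rpl13 (-0.16 to 0.31), Rps12 (-0.29 to 0.12), Rpl17 (-0.18 to 0.22), Rps6 (-0.29 to 0.10) and Rpl7a (-0.25 to 0.14). These genes were chosen for that range; in the position match Rpl36 had 0.21, Rps12 0.08, Rps6 0.39 and Rpl7a 0.34, and the widest there were Rpl29 at 0.453 and Rpl23 at 0.408. Over all 61 genes the median range was 0.160 with the surface removed and 0.152 in the position match. Of the 76 gene medians in the position match, 52 lay below 0.

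The order of the subunits depended on how the medians were taken. The median loess ratio of large subunit probes minus that of small subunit probes was -0.03, -0.04 and 0.01 on the arrays, a mean of -0.019 ± 0.028 (SD, n = 3). The medians of the mean ratios were -0.136 for the large and -0.187 for the small subunit, in the opposite order, and with 1 value per gene the difference was -0.0682 (brightest probe) or -0.0684 (mean). With position matching it was -0.019, -0.032 and -0.037, below 0 on each array; no test was made of these differences. Large subunit probes numbered 9 among the 19 lower and 2 among the 11 higher, of 111 kept; small subunit probes numbered 10 and 9, of 69 kept. The stalk proteins Rplp0, Rplp1 and Rplp2, which recruit the elongation factors, had 6 probes with a position-matched median of -0.047, and none was called in both comparisons. Rpl5 and Rpl11, which form a particle with 5S RNA that binds Mdm2, had 4 probes, all below 0, from -0.15 to -0.08, with none called in both.

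The array files place 24 of the 180 probes, in 16 genes, on another chromosome than that of the gene, among them all 4 of Rps27 and 1 each of Rpl38 and Rpl37a. Ribosomal protein genes have many processed copies in the genome, and reads of such copies cannot be told from the gene here. The probes placed elsewhere had a position-matched median of -0.090 and the 155 placed with their gene -0.038, with 4 and 15 lower and 2 and 9 higher.

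The start of the mRNA was set beside these values, since the TOP motif is what the family shares. RefSeq (GRCm38.p6) gave a promoter window for 56 of the 76 genes. The motif searched was a run of at least 8 bases, each C or T, that starts with C within 10 bases of the annotated start, on the strand of the gene. It was found in 23 of the 56 genes (41.1%) against 9.43% of 27025 genes. The windows of Rpl38, Rpl35 and Rps10 among the low and Rps15a among the high genes are given, from 35 bases before the start to 20 after, with the run in capitals.
Rpl38: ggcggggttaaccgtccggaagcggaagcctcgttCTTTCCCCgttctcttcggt
Rpl35: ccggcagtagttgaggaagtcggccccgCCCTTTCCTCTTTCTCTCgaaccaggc
Rps10: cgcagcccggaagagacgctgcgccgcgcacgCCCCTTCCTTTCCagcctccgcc
Rps15a: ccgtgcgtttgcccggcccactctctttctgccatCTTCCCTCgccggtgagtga
On GRCm38.p6 they lie at chr11:114668545-114668599 on the plus strand, and at chr2:39005112-39005166, chr17:27635225-27635279 and chr7:118116128-118116182 on the minus strand. The run was thus present in genes at both ends of the order. The 54 probes of genes with the run had a position-matched median of -0.016 and the 75 of genes without it -0.036. A match describes letters in this window, and its lack says only that they are not there.

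Genes around the ribosome were read as lists, with the same calls as the members and the same background of 11.4% lower and 10.9% higher. Of the TOP mRNAs outside the ribosome (21 genes, 39 probes), 5 probes were lower (12.8%) and none higher in both comparisons, with a position-matched median of -0.029. Gnb2l1, the scaffold protein RACK1 of the small subunit, had loess log2 ratios of -0.59, -0.61 and -0.54 and position-matched differences of -0.44, -0.40 and -0.34 (limma adjusted p 0.00178). Npm1, a nucleolar chaperone, was lower on 1 of 5 probes, at -0.28, -0.43 and -0.51 (limma adjusted p 0.00255), and its other probes ran from -0.18 to 0.07 and were not called. Of the ribosome biogenesis factors (77 genes, 102 probes), 13 probes were lower (12.7%) and none higher, with a median of -0.077; the share lower was near the background. Wdr12, a factor of large subunit assembly, was lower on both probes, at -0.19, -0.46 and -0.58 on the first and a mean of -0.21 on the second. Fcf1, of small subunit processing, was lower on both, at -0.37, -0.48 and -0.29 and a mean of -0.29. Surf6, a nucleolar protein, was lower on 1 of 2, at -0.29 ± 0.10, the other having -0.18.

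The RNA polymerase I list, whose products transcribe the large ribosomal RNA precursor, had 7 of 20 probes lower (35%, 14 genes) and none higher, with a median of -0.099. Ubtf, the factor that marks the ribosomal DNA promoter, was lower on both probes, at -0.60, -0.57 and -0.40 (limma adjusted p 0.000584) and a mean of -0.27 (0.0314). Polr1b and Polr1a, the large subunits of the polymerase, had -0.24 ± 0.09 and -0.21 ± 0.08 (limma adjusted p 0.0240 and 0.0383); a second probe of Polr1a had -0.08 and was not called. Of the regulators (26 genes, 37 probes), 2 probes were lower (5.41%) and 3 higher (8.11%), both shares below the background. Rps6kb1, the S6 kinase, was lower on 1 of 3 probes, at -0.23 ± 0.08 (limma adjusted p 0.0242), the others having -0.08 and 0.04. Mycn, on a probe of intensity 6.83, was higher at 0.42 ± 0.17 (limma adjusted p 0.00412) and Myc at 0.33 ± 0.19 (0.0147). Gabpa, an Ets factor that binds promoters of such genes, had a loess ratio of 0.47 and 0.13 in the position match, which was not called (0.196).

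Rpl22l1, a paralog of Rpl22 outside the family as chosen, was lower at -0.66, -0.32 and -0.44 (limma adjusted p 0.00223). It was 1 of 2 lower probes (16.7%) among the 12 of paralogs and fusion genes, of which none was higher. The bright housekeeping genes that encode no ribosomal protein (36 genes, 69 probes) had a median intensity of 16.3. Their position-matched median was 0.081, where the members had -0.040. In both comparisons 14 of the housekeeping probes were higher (20.3%) and 1 lower (1.45%). Ftl1, the ferritin light chain, was among them, at 0.28, 0.26 and 0.20. Actb and 1 of the 2 Tuba1c probes had position-matched differences of -0.23 ± 0.06 and -0.28 ± 0.16, called there (limma adjusted p 0.0227 and 0.0202) but not with the surface removed (0.212 and 0.244); the other Tuba1c probe, at -0.33, was the 1 lower.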

How the data were processed

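Per the file headers and the submitters' processing notes, the authors deposited scanner output of Agilent Feature Extraction 10.7.1.1 for 3 arrays of 1 slide, as linear intensity per spot and channel, and a linear ratio per probe in a series matrix, which lay within 1% of the processed Cy3 signal divided by Cy5 for 100% of values (column medians 1.02, 1.03 and 0.972). Background was corrected by normexp at an offset of 50, and each array was normalized by loess (1377 control spots at weight 0) in limma 3.58.1, R 4.3.3. Flagged outlier spots were dropped (1 member spot on each of 2 arrays), and spots of a probe were averaged. Of 39429 probes, 21791 were kept: well above background in the same channel on all 3 arrays. Log2 ratios, and their differences from matched probes, were tested against 0 with lmFit and eBayes over all kept probes, with Benjamini-Hochberg adjustment and a threshold of 0.05. The surface was a polynomial of degree 4 in row and column, alone and times intensity. The limma fit, the surface removal and the match in intensity were tested on simulated data, where the trend over rows did not depend on intensity. The position match and the regression on bright probes were not tested in this way. Array names were set against RefSeq by accession for 162 of 181 member probes; 2, both Rps3a, have another symbol there. Only 3 arrays limit the precision.

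The members and lists were chosen with earlier results of these data known. Some items are not reported here. Probes named are otherwise the 10 lowest and 10 highest with the surface removed and matched in intensity, the 6 genes of widest range, Rpl10, Rpl23, Rpl14 and Rpl8, and up to 4 genes per list called in the loess and surface-removed fits; the overlapping pairs and other called members were added after their values were seen. Each array is a numbered pair, so the ratio holds the pairing. Promoter windows are RefSeq's.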

Additional observations from a re-analysis of the deposited data

How the results depend on the processing

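The counts of called members depended on the processing, and the causes were not tested. They are given as higher and lower by the loess ratio, in both ratio fits, from equally bright probes, and in both matched comparisons. Counts are of 180 probes unless stated. The shares of all kept probes under these settings are not given here, so these counts cannot be set against a background. Agilent's processed signals gave 11 and 26, 11 and 24, 9 and 13, and 6 and 7. The deposited series matrix gave 11 and 26 by ratio and 10 and 9 from equally bright probes. Median centring in place of loess gave 1 and 172, and 0 and 171. With the surface removed 14 were higher by ratio and 20 from equally bright probes, and with neighbours in position 12. With 1 value per gene the counts are of 76 genes and not of 180 probes. The brightest probe per gene gave 5 and 46, 1 higher in both ratio fits, 11 and 15, and 6 and 12. Averaging the probes of each gene gave 4 and 34, 0 and 20, 9 and 12, and 4 and 8. Leaving out 1 array gave 12 to 29 and 55 to 72, 0 to 3 and 26 to 39, 20 to 41 and 23 to 29, and 3 to 9 and 3 to 14.

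Both lines share an array, so a ratio already carries the pairing; without the replicate block, with channels fitted as separate samples, the counts were 3 and 35, 0 and 7, 4 and 1, and 0 and 0.

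The median ratio of members was -0.0254 with processed signals and with the series matrix, -0.916 with median centring, -0.0935 with the surface removed, -0.263 for the brightest probe and -0.166 for the mean per gene. The median difference from equally bright probes changed sign: -0.0317 with processed signals, -0.0214 with the series matrix, -0.0227 with the surface removed, -0.0124 with 300 neighbours, -0.0395 with position, -0.0176 for the brightest probe, -0.0126 for the mean, and -0.0076 to 0.0145 without 1 array. The large minus small difference was -0.0682 for the brightest probe and -0.0684 for the mean.

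Some named probes turned direction. By ratio, processed signals and the series matrix both gave Rpl6 0.166, Rpl13 0.238, Rps15a 0.258, Rpl3 0.286, Rps24 0.275, 0.232 and 0.421, Rpl8 0.015 and Rpl10 0.020. With the surface removed Rps12 had -0.409, Rpl6 0.140, Rps15a 0.252, Rpl3 0.226 and Rps24 0.202, 0.214 and 0.379. Median centring gave Rps12 -0.820, Rps4x -0.752, Rps3a -0.497, Rps24 -0.396, Rpl23 -0.419 and Rpl14 -0.381. As a difference from equally bright probes, Rpl38 had -0.311 with processed signals, -0.267 with the series matrix, -0.452 with the surface removed and -0.385 with position. With the surface removed and with position, Rps27a had -0.436 and -0.303, Rpl35 -0.413 and -0.243, and Rpl36 -0.379 and -0.196. With the surface removed Rps12 had -0.293, Rpl6 0.259 and Rpl10 0.075; with processed signals Rpl10 had 0.013. Signal over background did not limit the members, since all 180 kept probes were well above it in both channels.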
